A study of Homo sapiens with 15 samples.

Results

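The genes described here are 10 genes of antigen presentation by class I molecules and of the immunoproteasome: PSMB8, PSMB9, PSMB10, TAP1, TAP2, TAPBP, B2M, ERAP1, ERAP2 and NLRC5. They were chosen by name, with earlier results of these data known. Every probe set that the platform annotation gives to exactly 1 of them was used. That gave 25 of the 54613 probe sets that are not controls, and 10 of the 19775 genes with a single-symbol probe set. The brightest probe set of a gene, by its mean over the 15 arrays, is its main one. RNA came from A549, a human lung carcinoma line, so all groups share the background of 1 tumour line, and was read on the HG-U133 Plus 2.0 array of Affymetrix. There were 5 groups of 3 arrays: 40 nM geldanamycin and its vehicle, both harvested at 24 h, and vehicle, 10 nM and 40 nM geldanamycin, all harvested at 48 h. Cells attached for 24 h before treatment, vehicle was DMSO at 0.4%, and the submitters found 40 nM to be the IC50 and 10 nM the IC20. Geldanamycin inhibits the chaperone HSP90.

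Class I molecules show short peptides from the cell's own proteins to CD8+ T cells and natural killer cells. Proteasomes cut the proteins, the TAP transporter pumps the peptides into the endoplasmic reticulum, aminopeptidases trim them there, and a loading complex fits them onto a heavy chain paired with beta-2-microglobulin. In most cells outside the immune system the pathway runs at a low level and is raised by interferons and by NF-kB, and many lung tumours express parts of it weakly.

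The promoters of these genes are shown because most of them hold the same short motif of interferon regulatory factors. RefSeq promoter windows run from 250 bases before a start site to 50 from it, and 9 of the 10 genes matched 13 windows. The interferon-stimulated response element was searched on both strands as 2 blocks of GAAA with any 2 bases between them. It was found in 8 of the 13 windows, belonging to 8 of the 9 genes, and in 3.57% of all 35116 windows of the table. The kB motif of NF-kB, searched as GGG, any 3 bases and TTCC, was found in windows of 3 genes, B2M, TAP1 and TAPBP, and in 6.52% of all windows. Capitals mark both motifs in the sequences below, in which 250 bases precede the start site.
TAP1 promoter, GRCh38.p14 chr6:32853655-32853954, minus strand: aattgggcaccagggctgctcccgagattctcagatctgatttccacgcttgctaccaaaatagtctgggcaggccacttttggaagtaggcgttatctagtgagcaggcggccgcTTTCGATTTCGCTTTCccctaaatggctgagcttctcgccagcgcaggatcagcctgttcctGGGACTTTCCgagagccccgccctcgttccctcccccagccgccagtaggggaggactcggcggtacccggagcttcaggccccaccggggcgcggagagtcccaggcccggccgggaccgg
PSMB9 promoter, GRCh38.p14 chr6:32853942-32854241, plus strand: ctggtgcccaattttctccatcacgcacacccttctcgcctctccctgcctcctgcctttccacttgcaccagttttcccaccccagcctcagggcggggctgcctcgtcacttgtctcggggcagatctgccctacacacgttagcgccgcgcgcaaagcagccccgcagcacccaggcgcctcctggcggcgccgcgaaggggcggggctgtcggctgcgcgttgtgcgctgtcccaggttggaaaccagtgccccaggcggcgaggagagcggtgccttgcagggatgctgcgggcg
TAPBP promoter, GRCh38.p14 chr6:33314029-33314328, minus strand: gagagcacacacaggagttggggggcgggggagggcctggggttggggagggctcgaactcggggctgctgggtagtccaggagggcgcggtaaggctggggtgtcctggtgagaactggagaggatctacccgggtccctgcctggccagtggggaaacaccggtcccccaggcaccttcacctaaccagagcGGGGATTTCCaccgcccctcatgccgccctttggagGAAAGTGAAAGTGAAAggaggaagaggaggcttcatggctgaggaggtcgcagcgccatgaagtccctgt
B2M promoter, GRCh38.p14 chr15:44711267-44711566, plus strand: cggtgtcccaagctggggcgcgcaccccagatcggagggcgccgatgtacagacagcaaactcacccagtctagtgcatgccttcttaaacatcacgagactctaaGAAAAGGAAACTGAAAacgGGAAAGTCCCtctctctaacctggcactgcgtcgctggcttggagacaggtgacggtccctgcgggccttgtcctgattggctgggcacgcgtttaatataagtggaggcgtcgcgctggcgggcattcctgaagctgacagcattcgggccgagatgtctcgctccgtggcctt
TAP2 promoter, GRCh38.p14 chr6:32838690-32838989, minus strand: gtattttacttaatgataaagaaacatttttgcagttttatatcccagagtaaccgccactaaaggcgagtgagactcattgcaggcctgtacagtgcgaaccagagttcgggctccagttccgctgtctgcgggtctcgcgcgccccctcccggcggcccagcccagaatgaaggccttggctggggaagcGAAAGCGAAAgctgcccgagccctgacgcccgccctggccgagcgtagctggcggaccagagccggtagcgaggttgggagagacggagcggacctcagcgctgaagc

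TAP1 and PSMB9 lie head to head, with 487 bases between their start sites, and their windows share 13 bases. The PSMB9 window held none of the motifs searched, while the TAP1 window held 2 overlapping response elements that start at -134 and -128 and a kB match at -72, counted from the start site. TAPBP and B2M likewise held 2 overlapping response elements and 1 kB match each. The remaining response elements were single: GAAAGCGAAA at -58 in TAP2 and at -21 in PSMB10, TTTCGCTTTC, the same motif on the other strand, at -4 in PSMB8, TTTCACTTTC at 3 in ERAP1, and GAAAGTGAAA at -30 in ERAP2. The gamma-activated site TTCNNNGAA was matched in windows of TAP1 (another start site) and PSMB8, against 7.66% of all windows. Neither the cyclic AMP response element TGACGTCA (1.85% of all windows) nor the heat shock element, searched as TTC, any 2 bases, GAA, any 2 bases and TTC (0.49%), was found in the 13 windows. A match describes letters in a window and was not tested as a site.

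Values are log2 RMA values, and "±" after a log2 change is its standard error in limma, with 3 arrays per group. The mean over all probe sets was 5.13 to 5.14 at 24 h and 5.52 in each group at 48 h, so the arrays of the 2 times appear to have been normalized apart, and levels at one time were not tested against those at the other. The 10 nM arrays stood apart in their controls: poly-A spike probe sets averaged 3.32 ± 0.03 (SD, n = 3) there, against 5.60 ± 0.06 on the vehicle arrays at 48 h, and the 3' minus 5' difference of ACTB was 2.68 ± 0.03 against 0.35 ± 0.06. For GAPDH that difference was 0.13 ± 0.004 at 10 nM and 0.15 ± 0.03 in vehicle. The part of this in the results at 10 nM was not tested; only the comparisons with 40 nM at 24 h, 40 nM at 48 h and their difference can be made without these arrays. Of 10 markers of the labelled cell type, KRT8 lay between 12.08 and 13.07 and KRT18 between 13.34 and 14.06 over the 15 arrays. EPCAM was at 3.91 to 5.88. In limma's fit 6 of the 10 rose and 3 fell at 40 nM and 24 h, against 14.8% and 16.7% of all genes. At 10 nM 2 rose and 4 fell (14.4% and 11.9%). At 40 nM and 48 h 5 rose and 3 fell (10.5% and 10.7%). CDH1 rose by 2.80 at 24 h and 2.82 at 10 nM, while KRT7 (-0.90 and -0.45) and CDH2 (-0.54 and -0.83) fell in both. PTPRC, the pan-leukocyte marker, was at 2.79 to 3.66.

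After 48 h of geldanamycin most of these genes were higher than in vehicle, and after 24 h most did not pass the test. At 10 nM, 9 of 10 genes rose and 0 fell, with a median log2 change of 0.49. At 40 nM and 48 h, 7 of 10 rose and 0 fell, with a median of 0.74. The gene not called in either comparison at 48 h, NLRC5, had an unadjusted p of 0.12 and 0.78. At 40 nM and 24 h, 1 rose, ERAP2, and 3 fell, TAP2, NLRC5 and PSMB9, with a median of 0.08. With quantile normalization over all 15 arrays or cyclic loess, 5 were called higher and 3 lower there. The share of all genes called under those 2 normalizations was not computed. The immunoproteasome subunit PSMB9 had the largest rise of the 10 in both comparisons at 48 h, 2.46-fold at 10 nM and 2.11-fold at 40 nM.

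These counts stand against a background in which many genes moved. Over all 19775 genes, limma at an adjusted p below 0.05 called 31.5% at 40 nM and 24 h (14.8% higher, 16.7% lower), 26.3% at 10 nM and 48 h (14.4% higher, 11.9% lower) and 21.3% at 40 nM and 48 h (10.5% higher, 10.7% lower). The share of the 10 genes called at 24 h, 4 of 10, was close to its background, while those at 48 h were above theirs. Since the genes were chosen with earlier results of these data known, that excess describes them and is no test of the set. The median log2 change over all genes was -0.007, 0.004 and -0.016 in these comparisons. Both comparisons at 48 h use the same 3 vehicle arrays.

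With a change of at least 1.5-fold asked for as well, 1 of the 10 genes was higher and 1 lower at 40 nM and 24 h, against 5.07% and 4.73% of all genes. At 10 nM and 48 h 4 were higher and 0 lower, against 3.83% and 3.24%. At 40 nM and 48 h 7 were higher and 0 lower, against 3.07% and 1.5%. Between the doses 0 were higher and 0 lower, against 3.51% and 2.95%, although 6 passed at the adjusted p alone. In the difference between the times described below 6 were higher and 0 lower, against 4.08% and 2.98%.

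**Figure D1:**
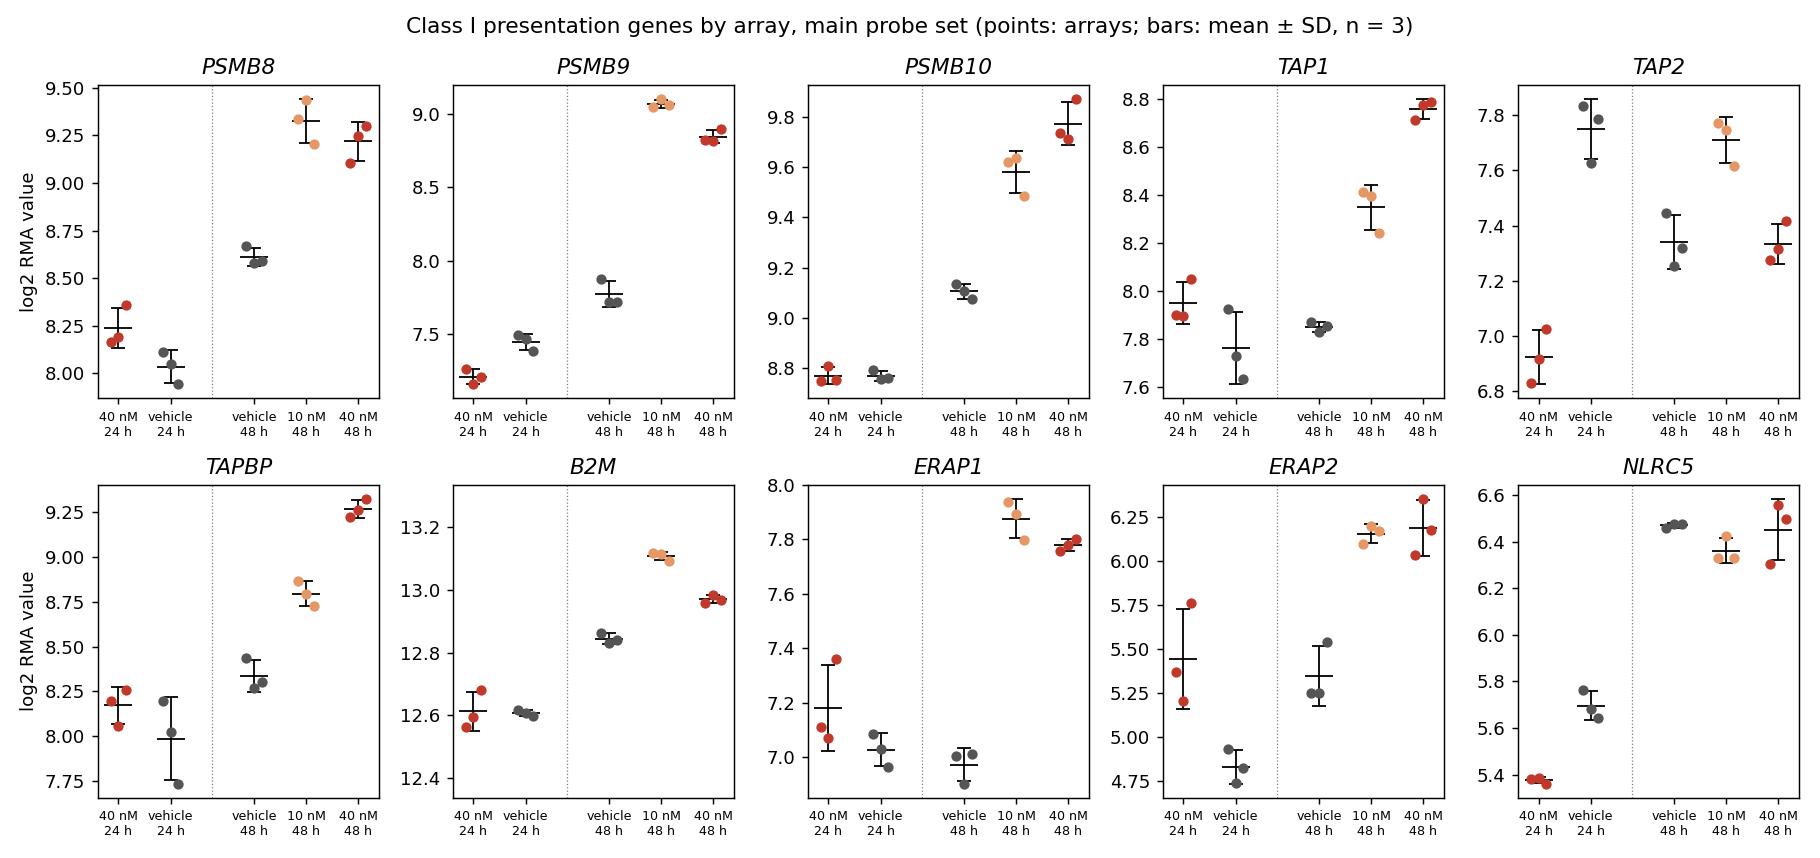
The log2 RMA value of each gene's main probe set on every array (vertical axis, a separate range for each gene), by group; points are arrays and bars the mean ± SD of 3 arrays, with a dotted line between the times. At 48 h the 10 nM and 40 nM arrays of PSMB8, PSMB9, PSMB10, TAP1, TAPBP, ERAP1 and ERAP2 all lie above the vehicle arrays, whereas for NLRC5 the 10 nM arrays lie below vehicle and the 40 nM arrays overlap it.

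The 3 immunoproteasome subunits are the catalytic proteins that take the place of the constitutive ones: PSMB8 that of PSMB5, PSMB9 that of PSMB6 and PSMB10 that of PSMB7. PSMB9 was at 7.26, 7.16 and 7.21 after 40 nM for 24 h, against 7.49, 7.47 and 7.38 in vehicle. At 48 h it was at 7.87, 7.72 and 7.72 in vehicle, 9.05, 9.10 and 9.06 at 10 nM, and 8.82, 8.82 and 8.90 at 40 nM. The groups did not overlap in any of these comparisons: the treated arrays were the lower ones at 24 h and the higher ones at 48 h. The log2 change was -0.24 ± 0.06 at 24 h (adjusted p = 0.006), 1.30 ± 0.06 at 10 nM (1.47e-09) and 1.08 ± 0.06 at 40 nM and 48 h (2.01e-08). The fall at 24 h no longer passed when the fit held the compared groups alone (adjusted p = 0.058).

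PSMB8 carries the chymotrypsin-like activity. It was at 8.16, 8.19 and 8.36 after 40 nM for 24 h, against 8.11, 8.05 and 7.94 in vehicle, a narrow gap that did not pass (0.20 ± 0.08, adjusted p = 0.067). Its arrays at 48 h were at 8.67, 8.58 and 8.59 in vehicle, 9.34, 9.43 and 9.20 at 10 nM, and 9.11, 9.25 and 9.30 at 40 nM. Both doses lay above vehicle with no overlap, by 0.71 ± 0.08 at 10 nM (9.96e-06) and 0.61 ± 0.08 at 40 nM (6.97e-05).

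PSMB10, the trypsin-like subunit, did not move at 24 h beyond the spread: its arrays were at 8.75, 8.81 and 8.75 with 40 nM and at 8.79, 8.76 and 8.76 in vehicle (0.001 ± 0.06, 95% interval -0.13 to 0.13). The 48 h arrays were at 9.13, 9.11 and 9.08 in vehicle, 9.62, 9.64 and 9.48 at 10 nM, and 9.73, 9.71 and 9.87 at 40 nM. It rose by 0.47 ± 0.06 (3.11e-05) at 10 nM and by 0.67 ± 0.06 (2.16e-06) at 40 nM, and the arrays of the 2 doses did not overlap either.

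TAP1 and TAP2 form the peptide transporter together. TAP1 was at 7.90, 7.89 and 8.05 after 40 nM for 24 h, against 7.93, 7.73 and 7.63 in vehicle, which overlapped (0.19 ± 0.08, adjusted p = 0.085). At 48 h TAP1 was at 7.87, 7.83 and 7.85 in vehicle, 8.41, 8.39 and 8.24 at 10 nM, and 8.71, 8.77 and 8.79 at 40 nM. The 3 groups at 48 h formed separate ranges that went up with dose. TAP1 rose by 0.50 ± 0.08 (0.0002) at 10 nM and by 0.91 ± 0.08 (1.34e-06) at 40 nM, or 1.88-fold.

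TAP2 had the largest change of the 10 genes at 24 h, and it was a fall. Its arrays were at 6.83, 6.92 and 7.03 with 40 nM, against 7.83, 7.63 and 7.79 in vehicle, with no overlap (-0.82 ± 0.08, adjusted p = 1.49e-06, 0.565 of the vehicle level). By 48 h it was at 7.45, 7.25 and 7.32 in vehicle, 7.77, 7.75 and 7.62 at 10 nM, and 7.27, 7.31 and 7.42 at 40 nM. It was higher at 10 nM (0.37 ± 0.08, 0.0024), and the 40 nM arrays overlapped those of vehicle (-0.01 ± 0.08, 95% interval -0.17 to 0.16). The second brightest probe set, 225973_at, fell likewise at 24 h (-0.65 ± 0.10) and rose at 10 nM (0.48 ± 0.10), but at 40 nM and 48 h it was higher by 0.73 ± 0.10 (adjusted p = 0.0001 over all probe sets). The 2 bright TAP2 probe sets thus disagreed at 40 nM and 48 h, and the mean of the gene's probe sets was called higher there (0.21, adjusted p = 0.011); at 24 h that mean fell by 0.43 (1.65e-05). The other TAP2 probe sets, 204770_at and 208428_at, were not called in any comparison.

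TAPBP encodes tapasin, which holds the class I molecule beside the transporter and edits its peptide. After 40 nM for 24 h it was at 8.20, 8.06 and 8.26, against 8.19, 8.03 and 7.74 in vehicle, which overlapped (0.19 ± 0.10, adjusted p = 0.19). Its 48 h values were 8.44, 8.27 and 8.30 in vehicle, 8.87, 8.79 and 8.73 at 10 nM, and 9.23, 9.26 and 9.32 at 40 nM. As with TAP1, the 3 groups at 48 h did not overlap and went up with dose, by 0.46 ± 0.10 (0.0028) at 10 nM and 0.93 ± 0.10 (1.1e-05) at 40 nM. With the mean of its probe sets both rises were smaller, 0.23 (adjusted p = 0.043) and 0.40 (0.002). Its 2 dimmer probe sets, 1555565_s_at and 210294_at, were not called in any comparison and did not show the same order of doses. In that order they were at -0.24 ± 0.11 and 0.47 ± 0.17 at 10 nM, and at 0.01 ± 0.11 and 0.25 ± 0.17 at 40 nM and 48 h.

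B2M, the light chain of every class I molecule, had the smallest rise of the 9 at 10 nM. Its arrays were at 12.56, 12.59 and 12.68 after 40 nM for 24 h and at 12.62, 12.61 and 12.60 in vehicle (0.01 ± 0.05, 95% interval -0.10 to 0.11). Its 48 h arrays were at 12.86, 12.83 and 12.84 in vehicle, 13.12, 13.12 and 13.09 at 10 nM, and 12.96, 12.99 and 12.97 at 40 nM. The ranges were separate, but small in steps: 0.26 ± 0.05 at 10 nM (0.0008), or 1.20-fold, and 0.13 ± 0.05 at 40 nM (adjusted p = 0.084). The step at 40 nM passed in only 5 of 28 alternative fits, among them cyclic loess, an intensity trend and array weights. The other bright B2M probe set, 201891_s_at, gave 0.25 and 0.14.

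ERAP1 and ERAP2 are the aminopeptidases that trim peptides in the endoplasmic reticulum. ERAP1 was at 7.11, 7.07 and 7.36 after 40 nM for 24 h, against 7.09, 7.03 and 6.97 in vehicle, which overlapped (0.15 ± 0.07, adjusted p = 0.15). ERAP1 at 48 h was at 7.003, 6.90 and 7.01 in vehicle, 7.94, 7.89 and 7.80 at 10 nM, and 7.76, 7.78 and 7.80 at 40 nM. Both doses stood well above vehicle, by 0.90 ± 0.07 (6.24e-07) and 0.81 ± 0.07 (3.36e-06). Of its 4 dimmer probe sets, 214012_at went against the main one at 10 nM, with -0.50 ± 0.10 (adjusted p = 0.0018 over all probe sets), and rose by 0.98 ± 0.10 at 40 nM and 48 h, while the other 3 were not called. With the mean of all 5 probe sets the rise at 10 nM did not pass (0.17, adjusted p = 0.083) and that at 40 nM was 0.51 (8.41e-05), and from its probe set 209701_at, used when _s_at probe sets are left out, neither rise did (0.19 and 0.12).

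ERAP2 was the only one of the 10 genes called higher at 24 h, and it was called in all 3 comparisons with vehicle. It was at 5.37, 5.21 and 5.76 after 40 nM for 24 h, against 4.93, 4.74 and 4.82 in vehicle. At 48 h it was at 5.25, 5.25 and 5.54 in vehicle, 6.10, 6.20 and 6.17 at 10 nM, and 6.03, 6.35 and 6.18 at 40 nM. Treated arrays lay above vehicle in each case, by 0.62 ± 0.13 (0.0017), 0.81 ± 0.13 (0.0003) and 0.84 ± 0.13 (0.0003). Its probe set 235104_at rose in the same 3 comparisons (0.35, 0.46 and 0.47), 1554272_at rose at 10 nM (0.37) and 219759_at at 40 nM and 48 h (0.66). The mean of its probe sets rose less, by 0.24 (adjusted p = 0.017), 0.47 (0.0002) and 0.44 (0.0004) in the same order.

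NLRC5 is the transactivator that assembles with RFX, NFY and CREB factors on class I promoters. It did not rise in any of these comparisons. It was at 5.38, 5.39 and 5.36 after 40 nM for 24 h, against 5.76, 5.68 and 5.64 in vehicle, a fall of -0.32 ± 0.07 (0.0015) with no overlap. At 48 h NLRC5 was at 6.46, 6.48 and 6.48 in vehicle, 6.33, 6.42 and 6.33 at 10 nM, and 6.30, 6.56 and 6.50 at 40 nM. The change did not pass at 10 nM (-0.11 ± 0.07, 95% interval -0.25 to 0.03) or at 40 nM (-0.02 ± 0.07, 95% interval -0.16 to 0.12).

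**Figure D2:**
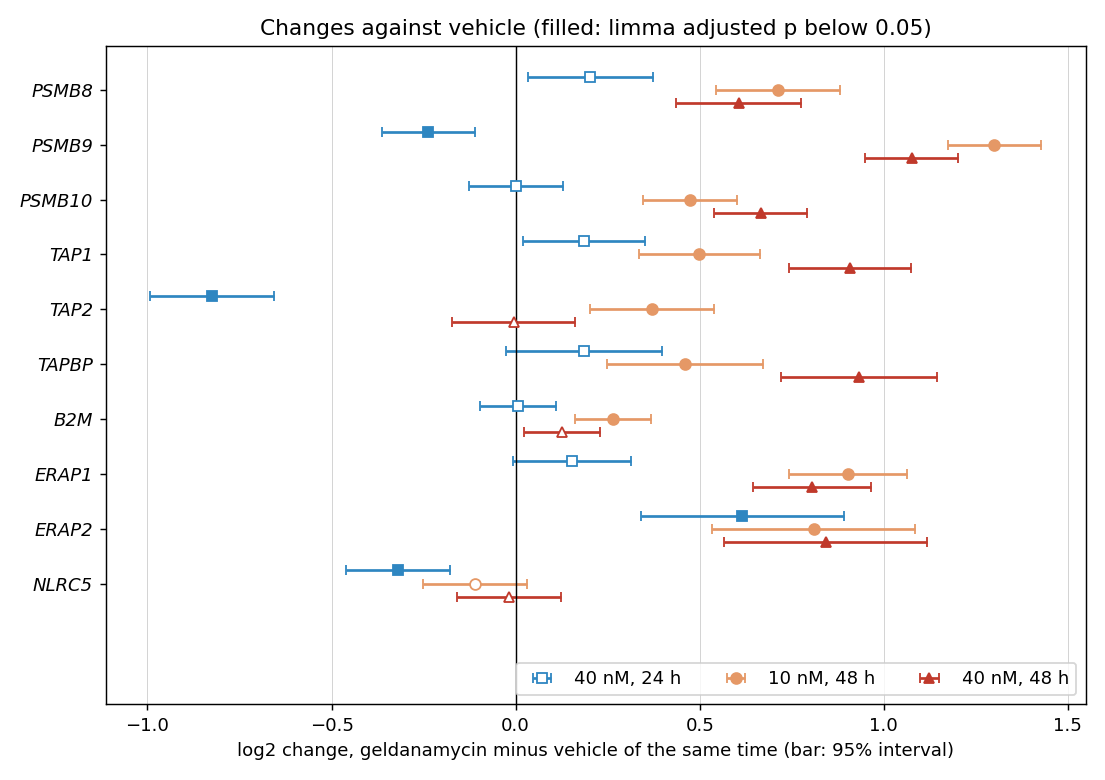
The log2 change of each gene's main probe set (horizontal axis) against vehicle of the same time, with its 95% interval, for 40 nM at 24 h, 10 nM at 48 h and 40 nM at 48 h; filled symbols passed limma's test at an adjusted p below 0.05. The symbols for 48 h lie to the right of those for 24 h in each gene, with TAP2 at -0.82 and PSMB9 at 1.30 as the extremes.

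The 2 doses at 48 h were compared directly, and the genes divided into 3 sets. TAPBP (0.47 ± 0.10, adjusted p = 0.0023), TAP1 (0.41 ± 0.08, 0.0011) and PSMB10 (0.19 ± 0.06, 0.026) were higher at 40 nM than at 10 nM. TAP2 (-0.38 ± 0.08, 0.0023), PSMB9 (-0.22 ± 0.06, 0.011) and B2M (-0.14 ± 0.05, 0.048) were lower. PSMB8 (-0.11 ± 0.08), ERAP1 (-0.10 ± 0.07), NLRC5 (0.09 ± 0.07) and ERAP2 (0.03 ± 0.13) did not pass, with 95% intervals within -0.28 to 0.31. Over all genes 26.4% were called in this comparison, 11.9% higher and 14.5% lower. The B2M difference was lost with the replicate block (adjusted p = 0.081) and without any one of the 9 arrays at 48 h (adjusted p between 0.063 and 0.12), and with array medians subtracted only TAP1, TAPBP and TAP2 remained called. The PSMB10 difference was lost without replicate 3 of 10 nM (adjusted p = 0.11) or of 40 nM (0.13). For TAP2 the direction turned with 225973_at (0.25, adjusted p = 0.087), and the mean of its probe sets did not pass (-0.07, adjusted p = 0.42). With the mean of probe sets TAPBP no longer passed (0.17, adjusted p = 0.15) and ERAP1 was called higher (0.34, adjusted p = 0.0019).

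The effect of 40 nM at 48 h was also set against its effect at 24 h, a comparison with no shared arrays in which a step between the runs drops out. It was more positive at 48 h for 8 of 10 genes and more negative for 0, with a median difference of 0.66, whereas 9.18% of all genes were called more positive and 8.11% more negative (17.3% in all). PSMB9 had the largest difference, 1.31 ± 0.08 (adjusted p = 3.89e-07), and it had fallen at 24 h and risen at 48 h. TAP2 followed with 0.82 ± 0.11 (0.0001), TAPBP with 0.75 ± 0.14 (0.0017), TAP1 with 0.72 ± 0.11 (0.0003), PSMB10 with 0.66 ± 0.08 (7.98e-05) and ERAP1 with 0.65 ± 0.11 (0.0006). PSMB8 (0.40 ± 0.11, 0.022) and NLRC5 (0.30 ± 0.09, 0.039) passed more narrowly. PSMB8 was lost without replicate 1 or 2 of 40 nM at 24 h, replicate 2 or 3 of vehicle at 48 h, or replicate 2 or 3 of 40 nM at 48 h (adjusted p between 0.052 and 0.061). NLRC5 was lost without replicate 1 or 2 of vehicle at 24 h, replicate 1 of 10 nM, replicate 2 or 3 of 40 nM at 48 h, or any one of the arrays of 40 nM at 24 h and of vehicle at 48 h (0.053 to 0.10), and with the replicate block (0.056). B2M (0.12 ± 0.07, 95% interval -0.03 to 0.27) and ERAP2 (0.23 ± 0.18, 95% interval -0.16 to 0.62) did not pass. Without the 10 nM arrays in the fit 7 of the 8 were called, the exception being NLRC5 (adjusted p = 0.058), and the counts against vehicle at 40 nM stayed at 4 and 7. TAPBP no longer passed with the mean of its probe sets (0.22, adjusted p = 0.24), nor ERAP1 from its probe set 209701_at (0.26, adjusted p = 0.40).

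**Figure D3:**
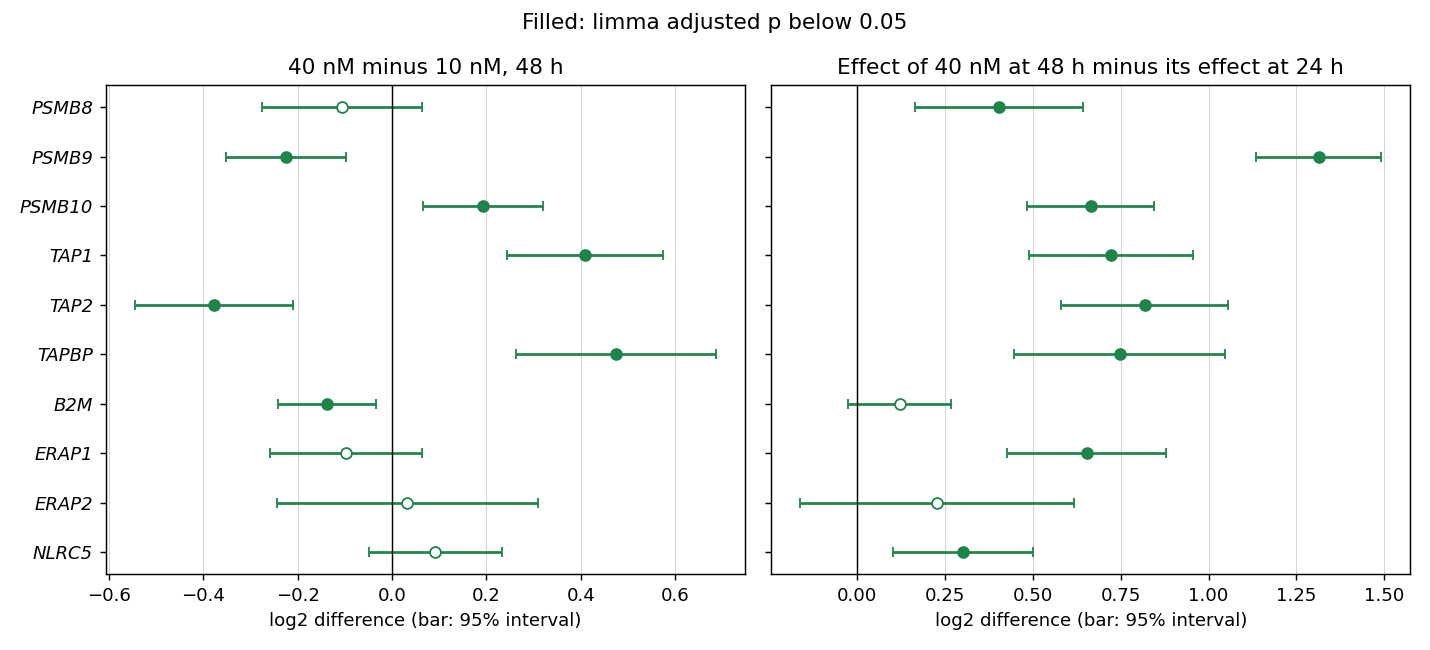
The log2 difference with its 95% interval for each gene's main probe set (horizontal axes), for 40 nM minus 10 nM at 48 h (left) and for the effect of 40 nM at 48 h minus its effect at 24 h (right); filled symbols passed limma's test. On the left, TAP1, TAPBP and PSMB10 lie above 0 and TAP2, PSMB9 and B2M below it; on the right, all 10 lie above 0 and PSMB9 is farthest out at 1.31.

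Because 5 of the genes have more than 1 probe set, every probe set was also tested, with p-values adjusted over all 54613. The single probe sets of TAP1, PSMB8, PSMB9, PSMB10 and NLRC5 kept the calls against vehicle described above. Between the doses PSMB10 (adjusted p = 0.060) and the main B2M probe set (0.13) lost their calls in this fit. NLRC5 lost its call between the times (0.086). Among the genes with several, both bright B2M probe sets moved alike, ERAP2 had rises in 2 of its 5 probe sets at 24 h and in 3 at each dose at 48 h, and no fall, and TAP2 and ERAP1 had probe sets that disagreed at 48 h. Among dim probe sets, 208428_at of TAP2 with group means between 2.93 and 3.59 and 214034_at of ERAP1 between 2.61 and 2.86 were not called in any comparison, whereas 1554272_at and 235104_at of ERAP2, which are as dim, were called as given above. What part of the transcript each probe set reads was not used here.

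**Figure D4:**
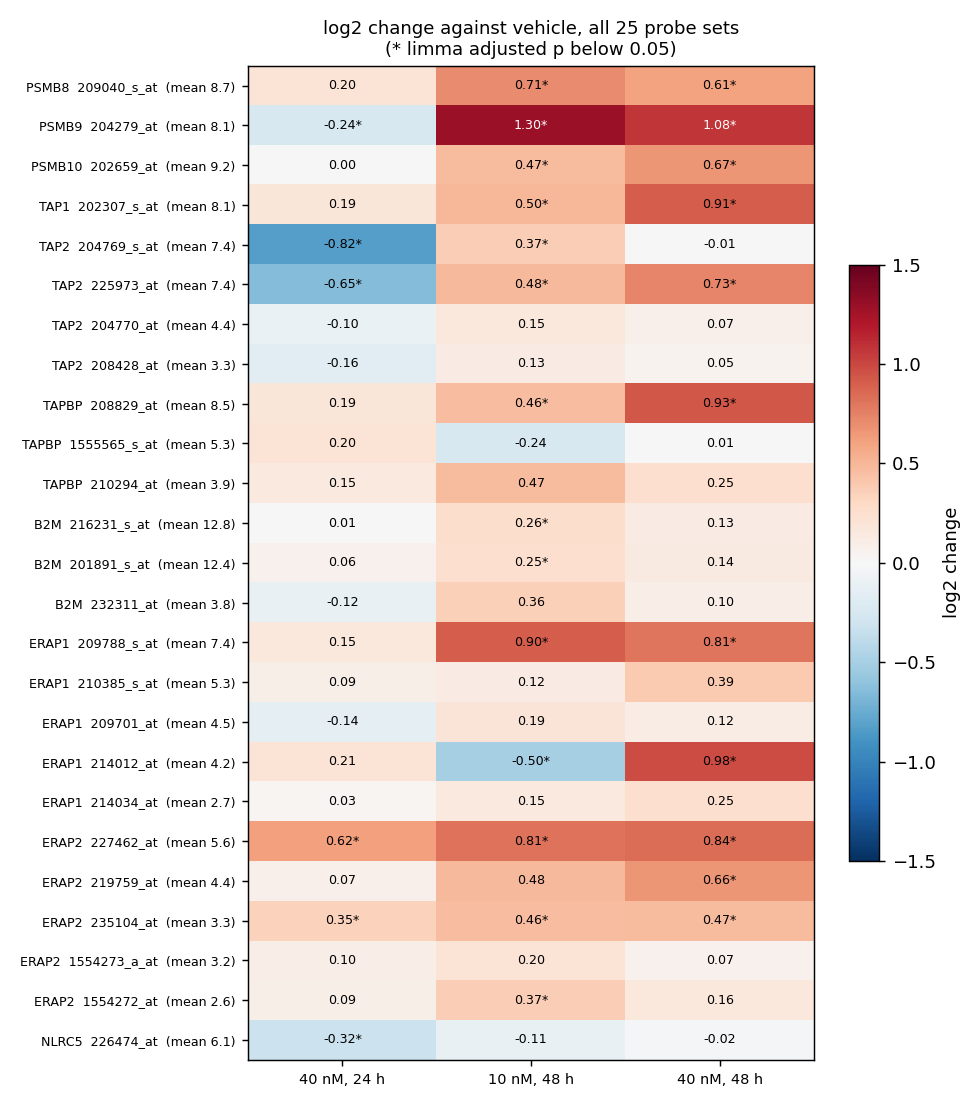
The log2 change against vehicle (colour and printed value) of all 25 probe sets (rows, by gene, with the mean log2 value over the 15 arrays) in 3 comparisons (columns); a star marks an adjusted p below 0.05 over all probe sets. The rows of TAP2 show -0.01 and 0.73 for its 2 bright probe sets at 40 nM and 48 h, and 214012_at of ERAP1 shows -0.50 at 10 nM beside 0.90 for the main one.

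The constitutive subunits that PSMB8, PSMB9 and PSMB10 replace changed little. PSMB5 was at 0.04 ± 0.05, 0.21 ± 0.05 and 0.14 ± 0.05 in the comparisons of 40 nM at 24 h, 10 nM at 48 h and 40 nM at 48 h, PSMB6 at 0.07 ± 0.05, 0.03 ± 0.05 and -0.22 ± 0.05, and PSMB7 at -0.01 ± 0.06, 0.18 ± 0.06 and -0.11 ± 0.06. Of these, PSMB5 and PSMB7 at 10 nM rose and PSMB6 at 40 nM and 48 h fell. PSME1, a subunit of the proteasome activator that interferon raises, rose in all 3, by 0.34 ± 0.06, 0.50 ± 0.06 and 0.54 ± 0.06. The list of counterparts, activators and assembly factors had 11 measured genes, of which 2 rose and 4 fell at 24 h (14.8% and 16.7% of all genes). At 10 nM 6 rose and 1 fell (14.4% and 11.9%), and at 40 nM and 48 h 1 rose and 2 fell (10.5% and 10.7%). The activator PSME3 fell at 24 h (-0.55) and the assembly chaperone PSMG3 fell at 24 h (-0.51) and at 10 nM (-0.60). At 40 nM compared with 10 nM 1 gene of the list was higher and 5 lower (11.9% and 14.5% of all genes). In the difference between times 2 were higher and 1 lower (9.18% and 8.11%). There PSMB6 was lower in both (-0.24 and -0.28), PSMB7 was lower at 40 nM than at 10 nM (-0.29; -0.10 and not called between times), and PSMB5 (-0.07 and 0.10) and PSME1 (0.04 and 0.20) did not pass in either.

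Heavy chains and class I-like molecules had 10 measured genes, with 3 rises and 1 fall at 24 h (14.8% and 16.7% of all genes). There were 2 and 0 at 10 nM (14.4% and 11.9%), and 2 and 0 at 40 nM and 48 h (10.5% and 10.7%). MICB, a stress ligand of natural killer cells, rose in all 3 (0.56, 0.996 and 1.03), MR1, which presents vitamin metabolites, rose at 24 h (0.93), and HLA-E rose at 40 nM and 48 h (0.24). The classical heavy chains HLA-B and HLA-C and the related HLA-F and HLA-G, named after their values were seen, were not called against vehicle, with changes between -0.15 and 0.11. At 40 nM compared with 10 nM 0 genes of the list were higher and 2 lower (11.9% and 14.5% of all genes). In the difference between times 2 were higher and 1, MR1, lower (-0.67), against 9.18% and 8.11%. The lists that follow stand against the same shares. In the 9 genes of folding and peptide editing, 6 rose and 1 fell at 24 h, 2 rose and 4 fell at 10 nM, and 2 rose and 1 fell at 40 nM and 48 h. TAPBPL, a second peptide editor, rose at 40 nM and 48 h (0.64), the chaperone HSPA5 fell in all 3 comparisons (-0.54, -0.24 and -0.36), and PDIA3 of the loading complex fell at 10 nM (-0.43). In that list 4 were higher and 2 lower at 40 nM than at 10 nM, and 1 was higher and 3 lower in the difference between times. The 6 other peptidases of the peptide supply had 2 rises and 2 falls at 24 h, 0 and 1 at 10 nM, and 1 and 0 at 40 nM and 48 h, with 1 and 0 between doses and 0 and 1 between times. The leucine aminopeptidase LAP3 rose at 24 h (0.47) and at 40 nM and 48 h (0.51).

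The part of the regulators below in the changes of the presentation genes was not tested. Among them IRF1, an interferon regulatory factor, rose in all 3 comparisons with vehicle, by 0.80 ± 0.09, 0.66 ± 0.09 and 1.15 ± 0.09. It was higher at 40 nM than at 10 nM (0.48 ± 0.09), and its effects at the 2 times did not pass as different (0.35 ± 0.13, adjusted p = 0.078). The interferon and NF-kB list had 23 measured genes, with 10 rises and 1 fall at 24 h (14.8% and 16.7% of all genes). There were 9 and 1 at 10 nM (14.4% and 11.9%), and 16 and 0 at 40 nM and 48 h (10.5% and 10.7%). The NF-kB subunit RELB rose by 0.31, 0.66 and 1.58, the receptor IFNGR1 by 0.78 at 24 h and 1.23 at 40 nM and 48 h while it fell at 10 nM (-0.31), IRF7 rose at 10 nM (0.75), and the NF-kB subunits NFKB2 (1.02) and REL (0.92) rose most at 24 h. The interferon genes IFNB1, IFNG and IFNL1, named after their values were seen, were not called in any comparison. Between the doses 7 genes of the list were higher at 40 nM and 1, IRF7, lower (-0.63), against 11.9% and 14.5% of all genes. Between the times 7 were higher and 1 lower, against 9.18% and 8.11%. The promoter factors below stand against the same shares. Of 11 class I promoter factors 1 rose and 5 fell at 24 h, 2 and 1 at 10 nM, and 1 and 3 at 40 nM and 48 h. RFX5, which binds the X box, rose in all 3 (0.59, 0.42 and 0.45), and NFYB fell at 24 h (-0.51) and at 10 nM (-0.45). Between the doses 1 factor was higher and 3 lower, and between the times 2 were higher and 0 lower.

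**Figure D5:**
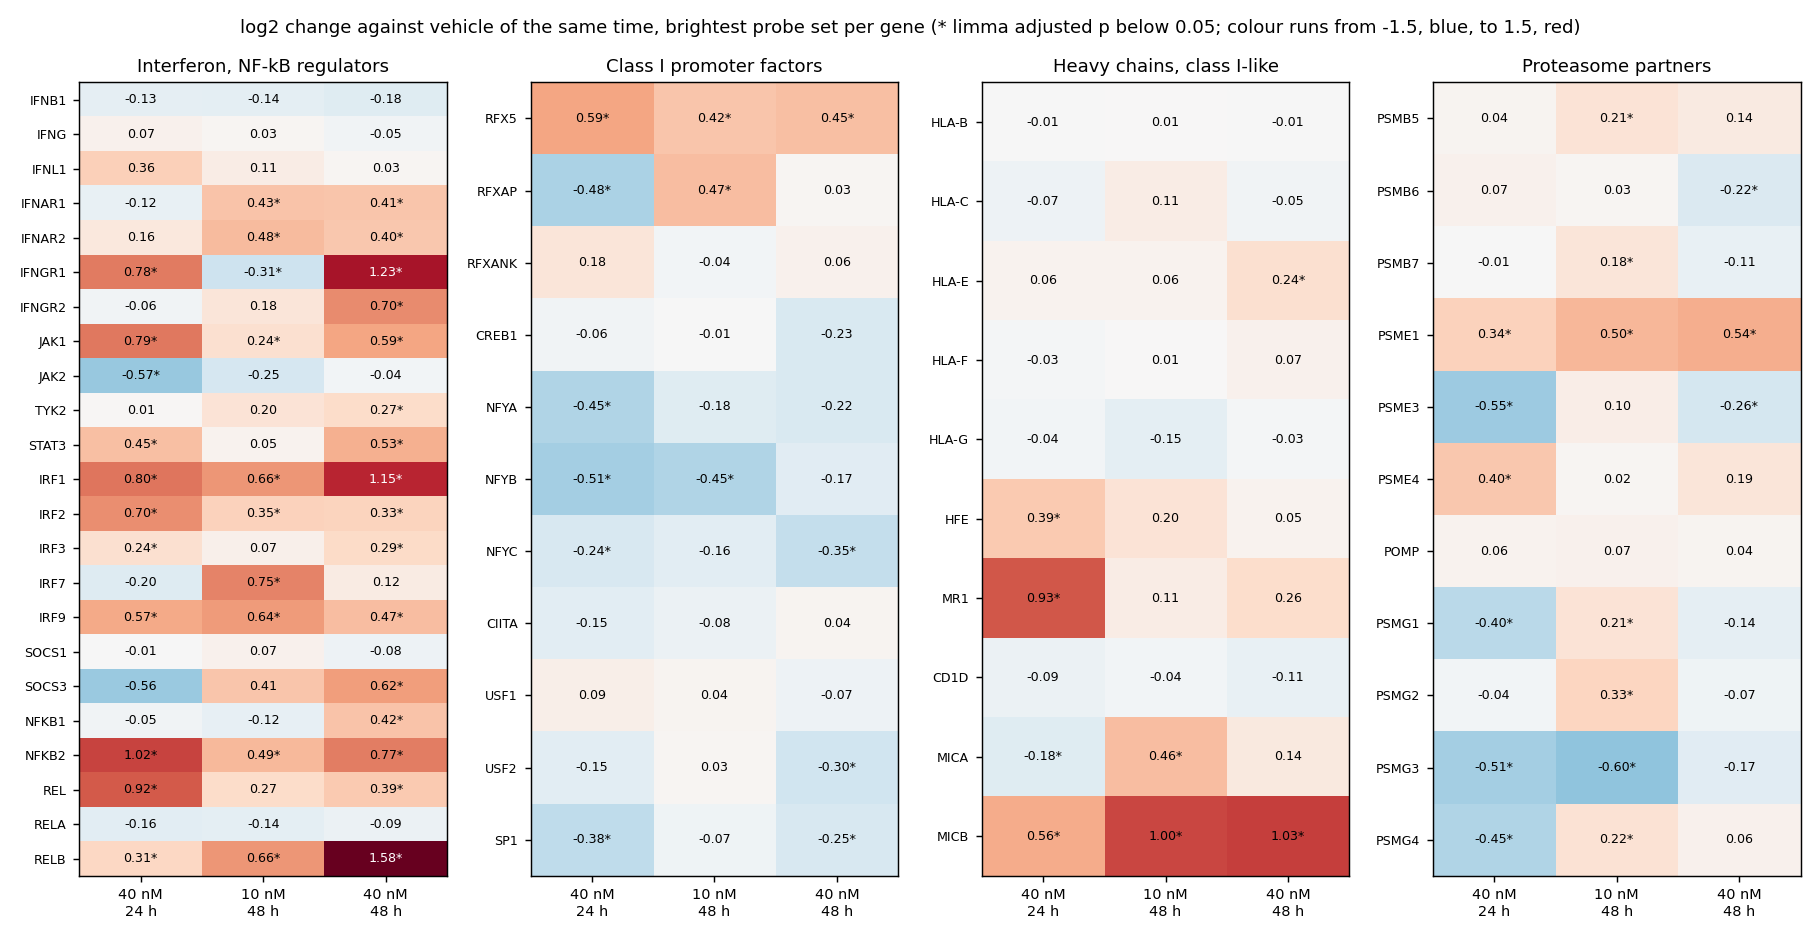
The log2 change against vehicle of the same time (colour and printed value) for the genes of 4 lists (rows) in 3 comparisons (columns); a star marks limma's adjusted p below 0.05. IRF1, RELB, RFX5, MICB and PSME1 have a star in all 3 columns, and HLA-B lies between -0.01 and 0.01.

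The marker counts in this paragraph stand against 14.8% of all genes higher and 16.7% lower at 40 nM and 24 h. The shares were 14.4% and 11.9% at 10 nM, and 10.5% and 10.7% at 40 nM and 48 h. Of 8 markers of professional antigen presenting cells 3 rose at 10 nM, CD74 (2.41), HLA-DRA (1.09) and CD83 (0.34). Of the same 8, 1 rose at 40 nM and 48 h, CD83 (0.79), and HLA-DRA fell at 24 h (-1.10). Their summed linear level was 250 to 272 after 40 nM for 24 h and 329 to 352 in vehicle. At 48 h it was 219 to 241 in vehicle, 380 to 409 at 10 nM and 254 to 290 at 40 nM. CIITA, CD80, CD86, ITGAX and CCR7 were not called in any comparison. Of 9 leukocyte markers, ITGAM rose at 10 nM (1.11) and at 40 nM and 48 h (1.21), CD14 rose at 40 nM and 48 h (0.86), and PTPRC, CD3E, CD3D, MS4A1, NKG7, LYZ and CSF1R were not called. Their summed level was 117 to 135 after 40 nM for 24 h and 113 to 136 in vehicle, and 173 to 189 in vehicle, 192 to 203 at 10 nM and 230 to 262 at 40 nM at 48 h. Of 8 endothelial markers 0 were called in limma's fit (at 24 h KDR and EMCN had an unadjusted p of 0.037 and 0.038 and an adjusted p of 0.10 each), with sums of 132.6 to 148 and 129 to 147 at 24 h and at 166 to 183, 162 to 199 and 167 to 200 at 48 h in the same order. Of 8 fibroblast markers 2 rose at 24 h, COL1A1 (0.50) and PDGFRB (0.34), 3 fell at 10 nM, and 1 rose and 1 fell at 40 nM and 48 h. The largest fall was that of LUM at 10 nM (-3.45), which averaged 6.37 in vehicle at 48 h, 2.92 at 10 nM and 5.53 at 40 nM. The fibroblast sums were 446 to 538 and 347 to 413 at 24 h, and 615 to 648, 431 to 450 and 650 to 718 at 48 h. The part of these markers in the changes of the presentation genes was not tested. In RNA from whole cultures, fewer cells with a transcript and less of it per cell cannot be told apart.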

How the data were processed

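Total RNA of A549 cells was labelled and hybridized to 15 arrays in 5 groups of 3. The deposited values are log2 expression values, 1 per probe set and array, which the authors made with RMA; the submitters' processing notes also name Affymetrix Expression Console, without a version. RMA subtracts background, aligns the arrays by quantiles and summarises probes, which compresses changes of dim and of very bright probe sets. The table has 54675 probe sets, 62 of them controls. The platform annotation gave 41091 of the others 1 symbol, 1801 several and 11721 none here, and 41037 symbols were updated or kept through the gene ID with RefSeq (GRCh38.p14), which also gave the promoter windows. Some genes of the pathway and marker lists were not analysed here.

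With limma 3.58.1 (R 4.3.3; lmFit, eBayes), 1 mean per group was fitted over the 15 arrays (10 residual degrees of freedom), on 1 probe set per gene, and two-sided p-values were adjusted by Benjamini-Hochberg over 19775 genes, threshold 0.05. Intervals are 95% intervals of this fit. Arrays have no read depth; precision is limited by their number (median standard error of log2 differences 0.0966). Whether replicates are separate cultures is not in the labels, and the p-values rest on a spread that may be technical. Fits were tested on simulated data. All 10 genes are named; of each list, the counts and up to 4 called genes with large changes, and PSMB5, PSMB6, PSMB7, PSME1 and IRF1 throughout. The genes, lists and tests were chosen with earlier results of these data known. Alternatives were other normalizations, filters, probe set rules, spread models, group subsets, a 1.5-fold threshold, the replicate block and leaving out each array.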

Additional observations from a re-analysis of the deposited data

Results flagged for a closer look

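The effect of 40 nM geldanamycin differed between 48 h and 24 h in limma's test of the difference itself for 8 of the 10 genes. The differences of the log2 changes, 48 h minus 24 h, were 1.31 for PSMB9, 0.82 for TAP2, 0.75 for TAPBP, 0.72 for TAP1, 0.66 for PSMB10, 0.65 for ERAP1, 0.40 for PSMB8 and 0.30 for NLRC5. All 8 were positive, while 9.18% of all genes were called more positive and 8.11% more negative. NLRC5 kept its call in 10 of 28 alternative fits and PSMB8 in 20 of 27. TAPBP and ERAP1 lost theirs under other probe set rules, as given above. The comparison rests on 3 arrays in each of 4 groups.

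The control probe sets, which no comparison used, gave a 3' minus 5' log2 difference of 2.68 for ACTB on the 10 nM arrays, against 0.35 on the vehicle arrays at 48 h. On the 40 nM arrays at 48 h it was 0.44.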

How the results depend on the processing

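Of 1370 log2 changes recomputed for the 10 genes in the 5 comparisons, 1285 kept their side of the threshold and, where called, their direction, 58 lost a call, 23 gained one and 4 turned direction. Many could not change in size or direction. Leaving out an array of a group not compared, the replicate block or an intensity trend alters only the spread. The number kept is therefore no measure of how stable the sizes are. The turned ones were TAP2 at 40 nM and 48 h with the mean of its probe sets (0.21) and without _x_at and _s_at probe sets (0.73), TAP2 between the doses without those probe sets (0.25), and ERAP1 between the doses with the mean (0.34). Except for the 1.5-fold threshold, the share of all genes called was not computed for the alternatives, so the counts below lack a background. The count of called genes at 24 h was 4, and 8 (5 higher, 3 lower) with quantile normalization over all 15 arrays and with cyclic loess. TAP1, TAPBP, PSMB8 and ERAP1 were the 4 added, each higher. With a 1.5-fold threshold the counts were 2 at 24 h, 4 at 10 nM and 0 between the doses by limma, where 6 of the genes passed at the adjusted p alone. Without _x_at and _s_at probe sets, which leaves 8 genes measured, they were 5 at 10 nM, 3 between the doses and 4 between the times. With array medians subtracted 3 were called between the doses. Leaving out each array in turn gave 4 to 6 called genes at 24 h, 9 in every fit at 10 nM, 7 in every fit at 40 nM and 48 h, 4 to 6 between the doses and 6 to 8 between the times. TAP1 and TAPBP were called higher at 24 h without replicate 1 of the vehicle (0.27 and 0.29). With the replicate block, 5 genes were called between the doses in place of 6 and 7 between the times in place of 8, and the other counts stayed at 4, 9 and 7. Same-numbered arrays did not deviate together (correlations between -0.41 and 0.29 over genes), so the numbers were not taken as pairs. The median change of all genes moved by less than 0.1 under each normalization. Aligning the arrays largely sets that median, so it is no check on the processing. The number of arrays, 3 a group, limits which small changes pass.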

Other observations

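On the vehicle arrays, levels at 48 h and 24 h stood side by side as follows, with a mean of 5.52 and 5.13 over all probe sets. NLRC5 averaged 6.47 ± 0.01 at 48 h and 5.70 ± 0.06 at 24 h (SD, n = 3 each), and PSMB8 averaged 8.61 ± 0.05 and 8.03 ± 0.08. The main probe set of TAP2 went the other way, with 7.34 ± 0.10 at 48 h and 7.75 ± 0.11 at 24 h. The second brightest TAP2 probe set, 225973_at, did not, with 7.39 ± 0.14 at 48 h and 7.15 ± 0.17 at 24 h. ERAP1 had 6.97 ± 0.06 and 7.03 ± 0.06. The ERAP1 probe set 214012_at averaged 4.92 at 48 h and 2.80 at 24 h. These differences of levels were not tested, since the arrays of the 2 times appear to have been normalized apart.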
